A study of Homo sapiens with 4 samples.

Results

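The PPM family comprises metal-dependent serine/threonine phosphatases, most of which work as single catalytic chains. Its 10 members examined here, PPM1A, PPM1B, PPM1D, PPM1F, PPM1G, PPM1H, PPM1K, PPM1L, PPM1M and ILKAP, were taken by gene symbol from the 50868 genes counted in A549 cells, and all 10 were found. A549 is a human lung adenocarcinoma cell line. The libraries were 2 from control A549 cells and 2 from A549 cells overexpressing USP12, a deubiquitinase that removes ubiquitin from protein substrates. The labels do not say what the control cells carried, but the study describes the controls of its A549 expression profiles as vector control. It cloned tagged forms of USP12 into pLVX vectors, and the labels do not say which form these cells carried. PPM1B is the phosphatase that the study examined as a protein partner of USP12. The paper proposes that USP12 removes ubiquitin from PPM1B and stabilises it, a claim about protein and not about mRNA. The labels do not say whether the replicates were separate cultures, so the p-values measure only the spread between these libraries, which may be technical.

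Unlike most PPP phosphatases, which rely on separate regulatory subunits, most PPM enzymes carry their regulatory and targeting sequences in the catalytic chain. They need manganese or magnesium ions. PPM1A and PPM1B are close relatives that dampen stress and inflammatory signalling, PPM1B by acting on the kinase IKKβ, which drives NF-κB activation. PPM1D, also called WIP1, turns off the DNA damage response, whereas other members serve Rab GTPases, mitochondrial metabolism or the endoplasmic reticulum. The counts report mRNA only and hold no measure of protein, ubiquitination or phosphatase activity.

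USP12 itself had 15.2 and 34.4 CPM in control replicates 1 and 2 and 1745 and 2235 CPM in USP12 replicates 1 and 2, where CPM are counts relative to the TMM-scaled library total. The fold change was 6.32 on the log2 scale (approximate standard error, SE, 0.57, edgeR adjusted p = 0.0975). Library totals were between 14280081 and 16305356 counts, and 3 counts, taken as the floor, stood for 0.166 to 0.227 CPM. This floor covers counting error only. The epithelial markers EPCAM, CDH1, KRT7, KRT8, KRT18 and KRT19 summed to between 7474 and 12900 CPM in control cells and to between 6794 and 7316 CPM with USP12. Of 6 alveolar type II markers, SFTPC, SFTPB and SFTPA1 were at or under the floor in all 4 libraries, as were PTPRC, CD3E, VWF and DCN among 8 markers of other cell types. The 6 alveolar markers summed to between 4.31 and 6.21 CPM in control cells and to between 1.385 and 1.58 CPM with USP12. The sum rests largely on LAMP3, at 1.97 and 5.60 CPM in control cells against 0.432 and 0.277 CPM (edgeR adjusted p = 0.332). NAPSA had 1.97 and 0.388 CPM against 1.01 and 1.04 CPM, so its groups overlapped, and NKX2-1 had at most 5 counts. The 8 markers of other cell types summed to between 57.6 and 127 CPM in control cells and to between 103.8 and 131 CPM with USP12. Those above the floor differed in direction. ACTA2 had 29.8 and 4.88 CPM in control cells and 48.6 and 40.7 CPM with USP12 (edgeR adjusted p = 0.846). COL1A1 had 13.0 and 2.60 CPM against 18.9 and 14.6 CPM (edgeR adjusted p = 0.887). PECAM1 was lower with USP12, at 5.15 and 3.10 CPM against 0.288 and 0.970 CPM (edgeR adjusted p = 0.447). CD68 lay between 46.8 and 79 CPM, and its groups overlapped.

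The control libraries differed more from each other than the USP12 libraries did. Over the 15222 genes tested, the log2 difference had an SD of 1.32 within the control pair and of 0.62 within the USP12 pair. These SDs do not say which control library was the odd one. The heading of control replicate 1 also carries another date-like prefix than the other 3, so a run and a culture cannot be told apart. The members are therefore also compared with each control library alone.

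The promoters of PPM1B, PPM1A and PPM1D are printed because PPM1B is the member the study turned on, PPM1A is its close relative, and PPM1D had the smallest p of the family. They are the RefSeq windows of 300 bases on GRCh38.p14, from 250 bases before the annotated start to 50 after it, 5′ to 3′ on the coding strand (plus for all 3). Capitals mark GC boxes (GGGCGG on either strand), the motif of Sp factors, and the palindromic cyclic AMP response element (CRE, TGACGTCA), the motif of CREB and ATF factors, and matches of the 2 motifs did not overlap.
PPM1B, chr2:44168625-44168924: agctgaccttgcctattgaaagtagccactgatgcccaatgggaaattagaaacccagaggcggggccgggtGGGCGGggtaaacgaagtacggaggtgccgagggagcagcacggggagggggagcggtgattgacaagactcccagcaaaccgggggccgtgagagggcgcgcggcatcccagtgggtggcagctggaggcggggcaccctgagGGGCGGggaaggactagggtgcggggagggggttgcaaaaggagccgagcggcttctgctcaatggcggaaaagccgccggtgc
PPM1A, chr14:60248971-60249270, the downstream of its RefSeq windows: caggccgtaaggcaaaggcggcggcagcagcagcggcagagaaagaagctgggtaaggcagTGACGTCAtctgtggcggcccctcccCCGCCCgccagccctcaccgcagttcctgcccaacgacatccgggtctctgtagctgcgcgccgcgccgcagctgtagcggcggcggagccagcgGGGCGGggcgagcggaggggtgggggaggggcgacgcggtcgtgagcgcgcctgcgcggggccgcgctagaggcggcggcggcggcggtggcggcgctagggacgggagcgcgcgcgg
PPM1D, chr17:60599943-60600242: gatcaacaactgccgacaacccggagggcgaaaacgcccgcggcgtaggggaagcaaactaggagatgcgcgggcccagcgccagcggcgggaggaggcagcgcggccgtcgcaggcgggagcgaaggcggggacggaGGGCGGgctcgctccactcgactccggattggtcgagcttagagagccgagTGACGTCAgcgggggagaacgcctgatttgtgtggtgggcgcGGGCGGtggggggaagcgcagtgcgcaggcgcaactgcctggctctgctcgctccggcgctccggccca
All 10 members had a RefSeq window, 14 windows in all. A GC box was found in 10 of the 14 windows, and in 45% of all 35116 windows of this length. Every member but PPM1H had such a window. The CRE was found in 2 of the 14 windows, those printed for PPM1A and PPM1D, and in 1.85% of all windows. Members with several windows had more chances of a match. The 10-base NF-κB consensus was matched in 1 of the 14 windows, that of ILKAP, and in 11.3% of all windows. Also searched were the TATA box (2 of the 14 windows, 11.5% of all windows) and the CCAAT box (4 of the 14, 34.6% of all). A p53 half-site was found in 0 of the 14 windows, against 6.63% of all windows. These matches describe the sequence and are not evidence that a factor was bound.

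In none of the 10 members did the difference between USP12 and control cells pass an adjusted p of 0.05. The background is printed beside each count: edgeR's quasi-likelihood test called 0 of 15222 genes at that threshold (0%), while 1155 genes, or 7.59%, had an unadjusted p under 0.05, against 0 of the 10 members. The median log2 fold change of the members was 0.14, and that of all genes tested was -0.06. Both USP12 libraries lay above both control libraries for PPM1D and PPM1H and below them for PPM1K, so 3 of 10 members had groups that did not overlap, where 36.5% of all genes tested did. For PPM1A, PPM1B and PPM1G both USP12 libraries lay between the control libraries, as they did for 36.7% of all genes tested. Nor did any member pass in 10 of 11 alternative settings. The share of all genes called in them was 2.13% with no filter on low counts, 2.67% with the DESeq2 Wald test, 2.69% with the edgeR exact test, 2.65% with the replicate number as a block, 0.146% with a GC content offset, 10.5% without control replicate 1, 0.248% without USP12 replicate 1 and 0.273% without USP12 replicate 2, and 0 genes were called with DESeq2's size factors or with at least 10 counts in every library. The exception was the fit without control replicate 2, in which 4 of 10 members and 32.2% of all genes were called. With 2 libraries per group the smallest p of an exact permutation test of a single gene is 0.333.

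**Figure D1:**
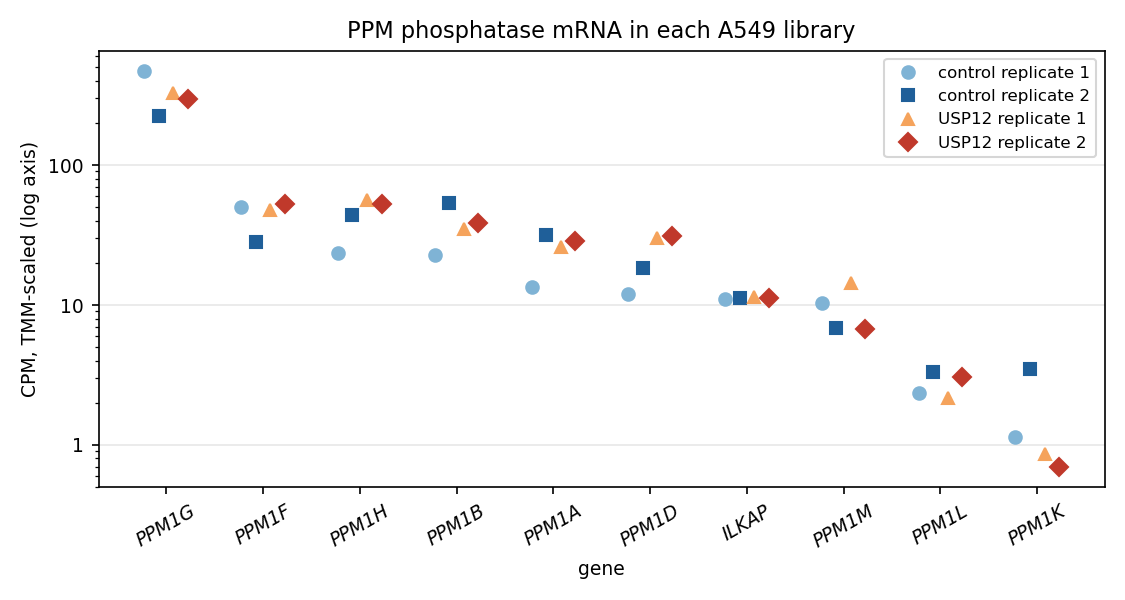
Level of each PPM gene in each library, in TMM-scaled CPM on a log axis, with 1 point per library and genes ordered by their mean. PPM1D and PPM1H have both USP12 points above both control points, PPM1K has both below, and the 2 control points of PPM1B lie on either side of its USP12 points.

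PPM1B (ENSG00000138032) spans positions 44167969 to 44244384 of chromosome 2, plus strand (GRCh38, as for all positions here). It had 300 and 970 counts in control replicates 1 and 2 and 483 and 556 counts in USP12 replicates 1 and 2, that is 22.7 and 53.8 CPM against 34.8 and 38.5 CPM. The control libraries thus held both the lowest and the highest value of this gene, and the USP12 libraries lay between them. The log2 fold change was -0.06 (SE 0.52, edgeR adjusted p = 0.991), with a 95% interval from 0.401-fold to 2.29-fold. That interval reaches well to both sides of an equal level, so the counts neither show a change of PPM1B mRNA nor show that it stayed level.
The direction of PPM1B turned with the control library it was set against. Without control replicate 1 its log2 fold change was -0.55 (edgeR adjusted p = 0.133), and without control replicate 2 it was 0.72 (edgeR adjusted p = 0.0498). The latter fit called 32.2% of all genes, 15.9% as higher, and it assumes that the lone control library varied like the other group.
PPM1A (ENSG00000100614, chromosome 14, 60245752 to 60299087), a phosphatase of SMAD2, SMAD3 and p38 kinases, had 13.5 and 31.9 CPM in control cells and 26.0 and 28.6 CPM with USP12. Like PPM1B it was lowest in control replicate 1 and highest in control replicate 2. Its log2 fold change was 0.26 (SE 0.53), -0.22 without control replicate 1 and 1.04 without control replicate 2.
Over the 4 libraries, the profiles closest to that of PPM1B among 65 genes of the lists used here were those of RAB10, BCKDHB and PPP1CB, at Euclidean distances of 0.18, 0.21 and 0.22 between centred log2 CPM. All 3 were lowest in control replicate 1 and highest in control replicate 2. With 4 points a profile says little beyond that order.

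PPM1D (ENSG00000170836, chromosome 17, 60600193 to 60666280) had 159 and 331 counts in control cells and 417 and 446 with USP12, or 12.03 and 18.3 CPM against 30.02 and 30.9 CPM. Both USP12 libraries were higher than both control libraries, as for 19.5% of all genes tested, and they were nearly level with each other. The log2 fold change was 1.00 (SE 0.45, unadjusted p = 0.0652, adjusted p = 0.713 by edgeR quasi-likelihood), which did not pass the test. It was 0.73 without control replicate 1 (edgeR adjusted p = 0.0960) and 1.37 without control replicate 2 (edgeR adjusted p = 0.0115).
CHEK2, which encodes a checkpoint kinase on which PPM1D acts, had 7.95 and 11.6 CPM against 17.0 and 14.6 CPM, a log2 fold change of 0.69 (edgeR adjusted p = 0.875). The groups did not overlap and the difference did not pass the test.

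PPM1H (ENSG00000111110, chromosome 12, 62643994 to 62935150), which removes phosphate from Rab GTPases marked by the kinase LRRK2, had 23.5 and 43.7 CPM in control cells and 56.4 and 52.8 CPM with USP12. The USP12 libraries were the 2 highest, and control replicate 1 was the lowest by a wide margin. On the log2 scale the fold change was 0.70 (SE 0.45, edgeR adjusted p = 0.865), 0.32 without control replicate 1 and 1.25 without control replicate 2.
PPM1M (ENSG00000164088, chromosome 3, 52245759 to 52250599), a relative of PPM1H, had 10.4 and 6.82 CPM in control cells and 14.3 and 6.72 CPM with USP12. Here the USP12 libraries held both the highest and the lowest value. For PPM1M the log2 fold change was 0.29 (SE 0.57), 0.62 without control replicate 1, 0.05 without control replicate 2, 0.74 without USP12 replicate 2 and -0.34 without USP12 replicate 1. TWF2, a gene on the opposite strand that overlaps PPM1M, had between 799 and 1868 counts against 97 to 198 for PPM1M, and the library kit kept strand, but it is not stated whether the counting used it, so mixing of fragments of the 2 genes was not tested.

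PPM1K (ENSG00000163644, chromosome 4, 88257620 to 88284769), the mitochondrial phosphatase that activates branched-chain amino acid breakdown, had 15 and 63 counts in control cells and 12 and 10 with USP12. With PPM1L it was one of the members of lowest depth, at 1.14 and 3.49 CPM against 0.864 and 0.693 CPM, and control replicate 2 stood above the other 3. Each USP12 library lay under each control library, as for 17.0% of all genes tested. USP12 and control cells differed by -1.57 on the log2 scale (SE 0.84, edgeR adjusted p = 0.814), -2.15 without control replicate 1 and -0.51 without control replicate 2.
PPM1L (ENSG00000163590, chromosome 3, 160755602 to 161078902), an endoplasmic reticulum phosphatase, had 31 and 60 counts in control cells and 30 and 44 with USP12. The groups overlapped. Its log2 fold change was -0.12 (SE 0.62), and it took both signs when single libraries were left out, from -0.40 to 0.18.

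PPM1G (ENSG00000115241, chromosome 2, 27381195 to 27409591), a nuclear phosphatase with roles in splicing and chromatin, had the highest level per kb of transcript of all 10 members in every library. It had 473.6 and 223 CPM in control cells and 327 and 298 CPM with USP12, the reverse of the order seen for PPM1A and PPM1B: control replicate 1 was highest and control replicate 2 lowest. The log2 fold change was -0.16 (SE 0.44), 0.49 without control replicate 1 and -0.57 without control replicate 2.
PPM1F (ENSG00000100034, chromosome 22, 21919425 to 21952848), a phosphatase of calmodulin-dependent and p21-activated kinases, had 49.8 and 28.3 CPM in control cells and 47.6 and 52.5 CPM with USP12. Control replicate 2 alone stood below the other 3. The log2 fold change was 0.36 (SE 0.44), 0.83 without control replicate 1 and 0.04 without control replicate 2. PPM1F-AS1, on the opposite strand, had between 11 and 57 counts.
ILKAP (ENSG00000132323, chromosome 2, 238170402 to 238203708), which associates with integrin-linked kinase, was the most even member. It had 11.1 and 11.2 CPM in control cells and 11.5 and 11.2 CPM with USP12. Its log2 fold change was 0.02 with an SE of 0.44, and the 95% interval ran from 0.481-fold to 2.13-fold. The test draws part of its variance from the other genes, so an even gene does not get a narrow interval.

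**Figure D2:**
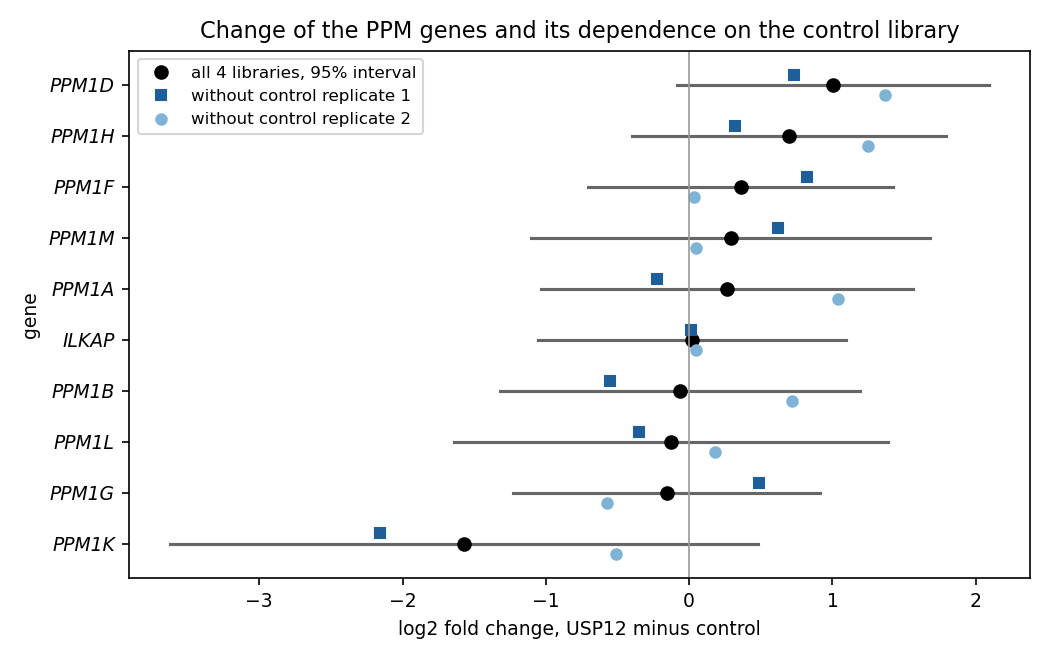
Log2 fold change of each PPM gene, USP12 minus control, with its approximate 95% interval from all 4 libraries as a black point and line, and the estimate when either control library was left out as blue points. Each interval crosses 0, and for PPM1A, PPM1B, PPM1G and PPM1L the estimates without control replicate 1 and without control replicate 2 lie on opposite sides of 0.

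Divided by the length of the canonical transcript, levels can be set side by side within a library. PPM1G came first in all 4 libraries and held 84.7% and 65.9% of the members' summed CPM per kb in control replicates 1 and 2, and 72.8% and 71.4% in USP12 replicates 1 and 2. PPM1B came second, with 20.6 CPM per kb in control replicate 2 and 13.3 and 14.8 with USP12, except in control replicate 1, where it stood at 8.70, after PPM1F at 9.67. Behind PPM1G, the levels of PPM1B, PPM1F, ILKAP and PPM1H lay between 3.63 and 20.6 CPM per kb and changed places between libraries, so their order is within the spread. PPM1L and PPM1K were lowest throughout, between 0.110 and 0.553 CPM per kb. Without PPM1G, the members summed to 38.9 and 52.2 CPM per kb in the control libraries and to 55.4 and 54.2 in the USP12 libraries. In bulk RNA, fewer cells that express a gene and less of its RNA per cell cannot be told apart.

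The difference between the control libraries ran along the GC content of the transcripts. The GC content of the canonical transcript was under 50% in 6 members, PPM1A, PPM1B, PPM1D, PPM1H, PPM1K and PPM1L, and all 6 were lower in control replicate 1 than in control replicate 2. Of the 4 members over 50%, PPM1F, PPM1G and PPM1M were higher in control replicate 1, and ILKAP differed by 0.01 on the log2 scale. Across the 10 members, which share the 2 libraries, Pearson's r between GC content and the log2 difference of control replicate 2 minus control replicate 1 was -0.87 and Spearman's rho was -0.77.
The same held for genes at large. Across the 15094 tested genes with a GC content, r was -0.55, and between the USP12 libraries it was -0.10, genes not being independent replicates. In genes with under 40% GC the median log2 difference of control replicate 2 minus control replicate 1 was 1.01, and in genes with over 55% it was -0.89. The median log2 difference of the USP12 mean minus control replicate 1 was 0.55 under 40% GC and -0.69 over 55%. Minus control replicate 2 it was -0.41 and 0.20. The difference of PPM1B, 1.24 at a GC content of 42.4%, can be read beside a median of 0.78 for genes with 40% to 45% GC, and that of PPM1G, -1.08 at 55.2%, beside -0.89 for genes with over 55%.
A fit with a GC content offset for each library gave log2 fold changes of -0.15 for PPM1B, 0.36 for PPM1A, 0.81 for PPM1D, 0.58 for PPM1H, 0.64 for PPM1F and -1.52 for PPM1K. It gave -0.22 for PPM1L, 0.51 for PPM1M and 0.05 for ILKAP, and PPM1G came to -0.0021, against -0.16 without the offset. No member passed an adjusted p of 0.05 in that fit (0 of 10, with 0.146% of all genes called). PPM1D and PPM1F had an unadjusted p under 0.05 (0.0295 and 0.0481 in edgeR). That is 2 of 10 members, where 1693 of the 15094 genes in that fit had one.

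**Figure D3:**
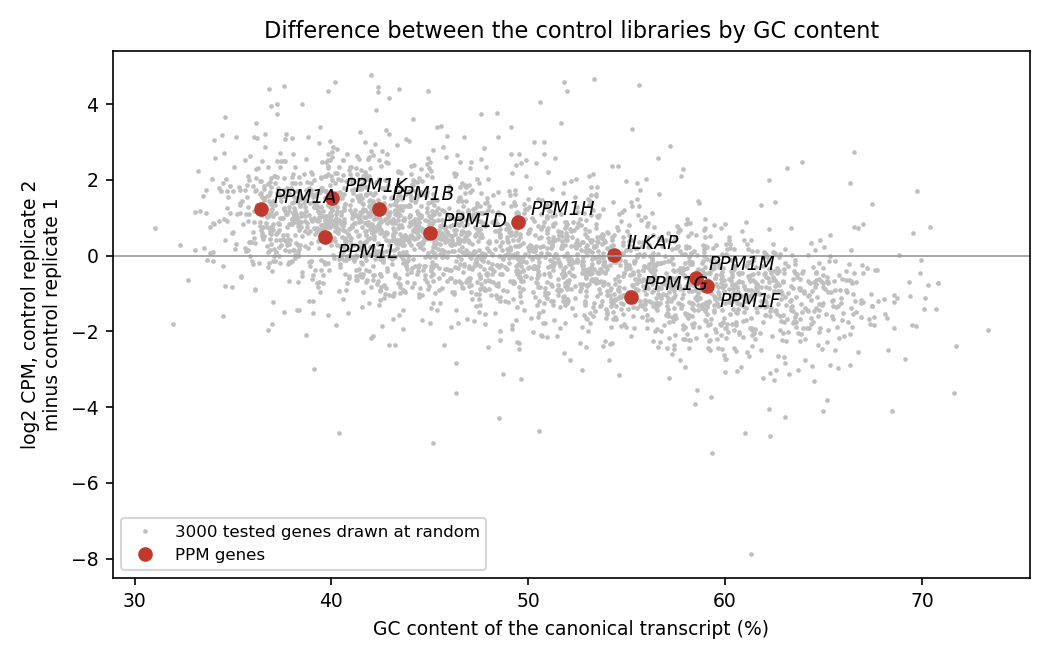
Log2 CPM in control replicate 2 minus control replicate 1 on the vertical axis against the GC content of the canonical transcript in percent, for the 10 PPM genes in red and for 3000 tested genes drawn at random in grey. The members with under 50% GC lie above 0 and PPM1F, PPM1G and PPM1M lie below it.

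The remaining genes with a PPM-type domain were 9, of which 8 were tested. PPM1E, expressed mainly in brain, had 7 and 6 counts in control cells and 5 and 4 with USP12 and was not tested. None of the 8 passed an adjusted p of 0.05 or an unadjusted p of 0.05 in edgeR's quasi-likelihood test. The catalytic subunits of pyruvate dehydrogenase phosphatase had the smallest p-values and pointed in opposite directions. PDP1 had 3.78 and 6.98 CPM in control cells and 11.1 and 11.2 CPM with USP12 (log2 fold change 1.05, SE 0.53). PDP2 had 8.32 and 14.2 CPM against 5.90 and 3.19 CPM (log2 fold change -1.31, SE 0.58). The groups did not overlap in either gene or in PHLPP1, that is in 3 of the 8 genes or 37.5%, against 36.5% of all genes tested.
PHLPP1 and PHLPP2, phosphatases of AKT, had log2 fold changes of 0.28 and -0.32, with SEs of 0.43 and 0.56. The USP12 libraries of PHLPP1, at 20.4 and 26.7 CPM, were above the control libraries, at 20.0 and 18.8 CPM, by less than they differed from each other. TAB1, a pseudophosphatase that activates the kinase TAK1, had 74.9 CPM in control replicate 1 and between 40.1 and 45.6 CPM in the other 3 libraries. The mitochondrial phosphatase PPTC7 had 7.34 and 28.8 CPM in the control libraries, with the USP12 libraries between them at 14.3 and 21.3 CPM. PPM1N (log2 fold change -0.20, SE 0.66) and PPM1J (-1.38, SE 1.40) were likewise uneven between the control libraries, and PPM1J had 38 counts in control replicate 1 and between 2 and 11 in the other 3.

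All of 36 genes for substrates, partners and upstream kinases of these phosphatases, or for partners of USP12, were tested. Of these, 0 passed an adjusted p of 0.05, and 1 had an unadjusted p under 0.05, against 7.59% of all genes tested. That gene was MAP3K5, which encodes the stress kinase ASK1. It had 5.22 and 5.87 CPM in control cells and 1.22 and 1.94 CPM with USP12, so that here the control libraries were close to each other and above both USP12 libraries. Its log2 fold change was -1.80 (SE 0.61, unadjusted p = 0.0239, adjusted p = 0.501 by edgeR quasi-likelihood). The median of the list was -0.06, as for all genes tested.
IKBKB, which encodes the PPM1B substrate IKKβ, had 28.2 and 29.0 CPM in control cells and 39.95 and 39.6 CPM with USP12. The groups did not overlap and each was even, and the log2 fold change of 0.48 (SE 0.39, edgeR adjusted p = 0.912) did not pass the test. RAB12, a Rab GTPase gene, had a log2 fold change of 0.67 and SMAD3, a transducer of TGF-β signalling, one of 0.49, both with non-overlapping groups. BCKDHA, a subunit of the complex that PPM1K activates, had a log2 fold change of -0.58 and ERN1, the endoplasmic reticulum stress sensor, one of -0.89 (SE 0.72). ERN1 had 21.9 and 101.5 CPM in control cells, with both USP12 libraries between them at 28.5 and 38.1 CPM, so its direction differs between the control libraries. Of the 36 genes, 11 had groups that did not overlap, 7 with USP12 higher and 4 with USP12 lower, or 30.6% against 36.5% of all genes tested.

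The catalytic subunits of the PPP phosphatases, the other large serine/threonine phosphatase family, gave a like picture. Of 13 genes 12 were tested, and PPEF2 had at most 1 count in a library. None passed an adjusted p of 0.05, and 1 had an unadjusted p under 0.05, as 7.59% of all genes tested did. PPP6C, the catalytic subunit of PP6, had 44.95 and 64.8 CPM in control cells and 22.8 and 22.1 CPM with USP12 (log2 fold change -1.29, SE 0.41, edgeR adjusted p = 0.470). Among the calcineurin subunits, PPP3CB had a log2 fold change of 0.74 and PPP3CC one of -0.62, both with non-overlapping groups. The PP1 and PP2A genes PPP1CA, PPP1CC and PPP2CA had log2 fold changes of -0.52, 0.37 and 0.28, with SEs between 0.40 and 0.47. The groups did not overlap in 4 of the 12 genes, or 33.3%, against 36.5% of all genes tested. The median of the 12 was -0.04.

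**Figure D4:**
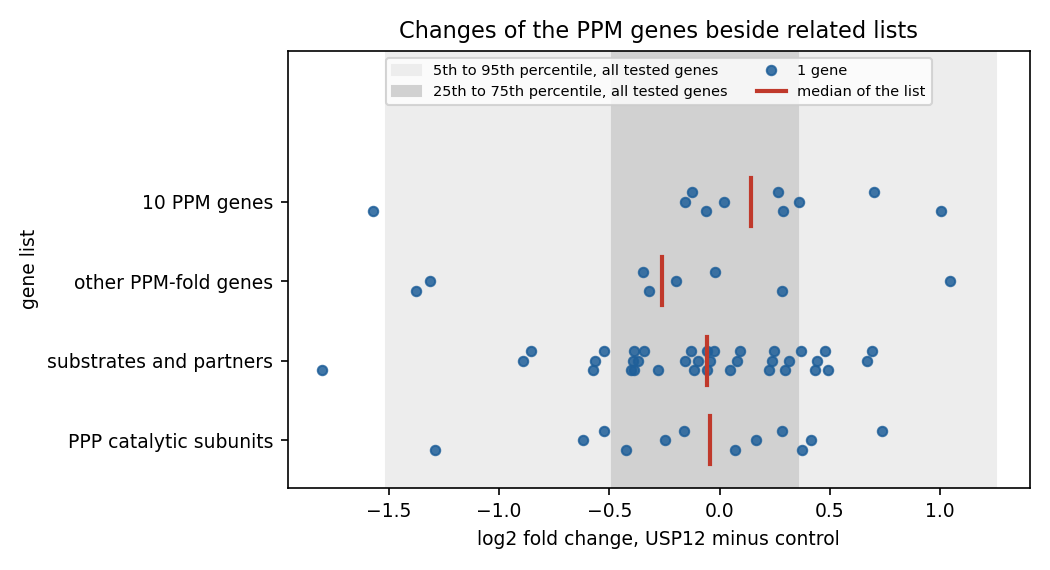
Log2 fold change, USP12 minus control, of each tested gene in 4 lists (blue points, spread vertically for legibility) with the median of each list as a red bar. Grey bands are the 5th to 95th and the 25th to 75th percentiles of all genes tested, from -1.51 to 1.25 and from -0.49 to 0.35, and PPM1K at -1.57 is the only PPM member outside the wider band.

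The annotation was searched for other sources of fragments for the members, of which TWF2, given above with PPM1M, had the most counts. Pseudogenes were searched only by a member's name. PPM1AP1, the pseudogene named after PPM1A, had 0 counts in each library. A gene model of GENCODE on the same strand, which starts within PPM1B and extends beyond it, is not among the genes counted. PPM1B-DT, which starts opposite the PPM1B promoter, had 5 counts in control replicate 1 and 0 in the other 3 libraries. PPM1K-DT had at most 2 counts. The deposited counts are per gene, so isoforms of PPM1B and of the other members were not separated.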

How the data were processed

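Messenger RNA was sequenced with a stranded library kit from 4 libraries of A549 cells, 2 control and 2 USP12. The authors removed adaptors and ribosomal RNA reads with Seqtk, mapped reads to GRCh38 with HISAT2 2.0.4 and counted uniquely mapped fragments per gene with StringTie 1.3.0; the deposited values are these raw counts. Which annotation release was used, and whether counting used strand, was not given in the sources used here. From the counts, 15222 genes kept by filterByExpr were TMM-scaled and compared with the quasi-likelihood test of edgeR 4.0.16 in R 4.3.3, with Benjamini-Hochberg adjustment. Standard errors come from the fold change and the F statistic and are approximate, and 95% intervals use the t distribution of the fit. Log2 CPM used a prior count of 2. Positions, length and GC content came from GENCODE release 44, matched by identifier for 99.2% of tested genes, and promoters from RefSeq.

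Samples were grouped by their titles. Named were all 10 members, USP12, the other PPM-fold genes, IKBKB, the 3 higher and 3 lower genes of smallest p in each further list, and the 3 profiles closest to PPM1B. Members and lists were chosen with earlier results of these data known. Other settings were the exact test of edgeR, the Wald test and the size factors of DESeq2 1.42.0, omitting the filter, requiring at least 10 counts in every library, a replicate block and leaving out each library; a GC content offset (lowess, span 0.3) was added after the data were seen. Protein sequences were not used here, and the result of 1 listed gene is not reported. H2AX was matched by identifier, as the files use an older symbol.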

Additional observations from a re-analysis of the deposited data

How the results depend on the processing

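Of 110 fold changes of the 10 members under 11 alternatives, 100 kept their sign. PPM1D, PPM1F, PPM1H and PPM1K kept it throughout. With DESeq2's size factors and with the DESeq2 Wald test ILKAP was at -0.0038 in both, and with the replicate block PPM1B was at 0.0643. The groups share replicate numbers 1 and 2. Same-numbered libraries deviated together with r = 0.15 across genes, and with 2 pairs the numbers were not taken as a pairing. The block left the variance of each gene to the trend (infinite prior degrees of freedom, against 4.15 without it), and called 153 higher and 251 lower genes. Prior degrees of freedom were infinite as well without a filter on low counts, without USP12 replicate 1 and without USP12 replicate 2.
No member passed an adjusted p of 0.05 in 10 of the 11. Without control replicate 2, PPM1A, PPM1B, PPM1D and PPM1H did (4 higher, against 15.9% of all genes called higher). With one library left out in turn, log2 fold changes ran from -0.22 to 1.04 for PPM1A, -0.55 to 0.72 for PPM1B, 0.73 to 1.37 for PPM1D, 0.04 to 0.83 for PPM1F, -0.57 to 0.49 for PPM1G, 0.32 to 1.25 for PPM1H, -2.15 to -0.51 for PPM1K, -0.40 to 0.18 for PPM1L, -0.34 to 0.74 for PPM1M, 0.01 to 0.05 for ILKAP and 5.85 to 7.06 for USP12.
Genes called by the quasi-likelihood test were 0 higher and 0 lower (1155 at an unadjusted p under 0.05). They were 167 and 361 without a filter, 133 and 273 with DESeq2, 160 and 250 with the exact test, and 6 and 16 with the GC content offset. With one library left out, they ranged from 12 to 2550 higher and from 28 to 2612 lower. Among alternatives that kept all 4 libraries, the fold change of USP12 passed 0.05 without a filter (6.33), with the DESeq2 Wald test (6.31) and the exact test (6.32). It also passed with the GC content offset (6.38) and the block (6.43). It did not pass with DESeq2's size factors (6.30) or with at least 10 counts in every library (6.32). Over the same left-out libraries, calls ranged from 0 to 4 higher and 0 lower of 10 members, from 0 to 2 higher and 0 to 1 lower of the other PPM-fold genes (8 tested with all libraries), from 0 to 8 and 0 to 4 of 36 substrates and partners, and from 0 to 5 and 0 to 3 of the PPP subunits (12 tested with all libraries). The highest counts came without control replicate 2, where 32.2% of all genes were called. The cause of these shifts was not tested. PPM1K and PPM1L had the lowest depth of the members, 10 to 63 counts per library.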
